A study of Mus musculus with 24 samples.

Results

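The 10 neuropeptide genes of the hypothalamus that are known for their part in appetite, arousal, water balance and the control of the pituitary described here were measured in mice with a liver-specific deletion of *Crif1*. They were *Agrp*, *Npy*, *Pomc*, *Cartpt*, *Hcrt*, *Pmch*, *Avp*, *Oxt*, *Trh* and *Crh*, taken by symbol, and they make up 10 of the 24532 genes of the deposited table. The samples were C57BL/6 mice on a chow diet, labelled as 8 weeks old. The Ctrl mice carried the floxed *Crif1* alleles alone (*Crif1*flox/flox), and the LKO mice carried the same alleles with Alb-Cre, a Cre recombinase under the albumin promoter, which is active in hepatocytes. RNA-seq of liver, iWAT, GM and hypothalamus gave 3 libraries per genotype and tissue, 24 in all, and the 6 hypothalamus libraries are named here Ctrl 1 to 3 and LKO 1 to 3. The labels give neither which tissues were taken from 1 mouse nor how the hypothalamus was dissected, and p-values measure only the spread between these libraries.

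In the arcuate nucleus, neurons that make *Agrp* and *Npy* drive feeding, and neighbouring neurons that make *Pomc* and *Cartpt* restrain it. The lateral hypothalamus holds separate cells for *Hcrt* (orexin, a peptide of wakefulness and feeding) and *Pmch* (melanin-concentrating hormone, which promotes feeding), and the paraventricular and supraoptic nuclei hold those for *Avp*, *Oxt*, *Trh* and *Crh*. Each gene is thus expressed in few cells at fixed places, so its level in a tissue block depends on where the block was cut as well as on the cells. In bulk tissue, fewer cells of a type and less RNA per cell cannot be told apart.

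Levels are given as FPKM, the fragments of a gene divided by its transcript length and by all fragments of that library. The depth behind them was 4.47 to 7.59 gigabases per hypothalamus library (median 5.34), and the mean coverage of the peptide transcripts ran from 9.25 for *Crh* in its lowest library to 5978 for *Pmch* in its highest. *Gadd45gip1*, the symbol of *Crif1* in the table, was 12.5 to 14.6 FPKM in the Ctrl livers and 2.0 to 5.4 FPKM in the LKO livers. In the hypothalamus it was 25.1 to 28.0 FPKM in Ctrl and 23.2 to 26.4 FPKM in LKO, so that the labels hold in liver and the gene was present in both groups here. The neuronal transcript *Snap25* stood between 545 and 606 FPKM in the 6 libraries, but not all neuronal markers were as even. *Gad2* was 81.3 FPKM in Ctrl 1, 38.9 FPKM in Ctrl 3 and 56.1 to 70.6 FPKM in the rest. The mean log2(FPKM + 1) of 7 neuronal markers was 6.76 in Ctrl 1, 6.35 in Ctrl 3 and 6.58 to 6.71 in the rest. In all, 3 of the 6 libraries stood apart in other markers. Ctrl 1 was rich in transcripts of the striatum, Ctrl 3 in those of blood and liver and poor in those of the suprachiasmatic nucleus, and LKO 1 had the most of those of the anterior pituitary, whose summed level was higher in all LKO libraries than in any Ctrl library and lowest in Ctrl 3. Their values are given beside the results they touch, and the fold changes and the spread of the peptides are also given with a library left out.

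One feature of the sequences bears on how 2 of the levels can be read. *Avp* and *Oxt* lie 3565 bases apart on opposite strands of chromosome 2, and their transcripts share an unbroken run of 127 bases in the coding part of neurophysin, the carrier protein of both hormones. That run is longer than the reads of 100 bases, and 28 words of 100 bases occur in both transcripts, among 478 in *Avp* and 438 in *Oxt*. Reads that fall wholly inside it cannot be assigned to either gene by their own letters. The run is printed in capitals with 20 bases of flank in lower case, from GENCODE transcripts on GRCm38, where it begins in exon 1 and ends in exon 2 of each gene. It spans chr2:130581113-130582431 on the minus strand for *Avp* and chr2:130576308-130576735 on the plus strand for *Oxt*, flanks and intron included.
Avp: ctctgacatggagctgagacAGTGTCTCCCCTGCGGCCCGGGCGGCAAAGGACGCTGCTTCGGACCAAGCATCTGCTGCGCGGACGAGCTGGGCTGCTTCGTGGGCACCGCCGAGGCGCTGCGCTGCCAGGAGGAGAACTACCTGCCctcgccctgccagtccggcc
Oxt: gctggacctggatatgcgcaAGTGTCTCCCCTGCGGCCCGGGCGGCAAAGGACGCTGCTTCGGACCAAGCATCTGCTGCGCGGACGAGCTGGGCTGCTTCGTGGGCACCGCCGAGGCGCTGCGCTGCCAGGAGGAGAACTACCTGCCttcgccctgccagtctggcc

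By level, the peptides fell into an order that both groups shared in its main steps. In Ctrl libraries *Pmch* had the highest mean, 761 ± 208 FPKM, followed by *Avp* at 680 ± 155, *Oxt* at 453 ± 137 and *Hcrt* at 293 ± 54.9 FPKM (SD, n = 3). A gap separated them from *Cartpt* at 119 ± 43.7, *Trh* at 88.2 ± 11.97, *Pomc* at 68.2 ± 27.8 and *Npy* at 52.4 ± 10.7 FPKM. *Agrp* at 10.9 ± 4.26 and *Crh* at 2.93 ± 1.73 FPKM were the lowest. The ranges of neighbours in that order overlapped in the Ctrl libraries except between *Hcrt* and *Cartpt*, *Npy* and *Agrp*, and *Agrp* and *Crh*. In LKO libraries *Trh* (107 ± 3.10 FPKM) stood level with *Cartpt* (106 ± 6.61) and *Npy* (74.8 ± 8.07) with *Pomc* (70.3 ± 37.9), and those ranges overlapped within each pair. Together the 10 transcripts took 0.546% of all TPM in Ctrl 1, 0.672% and 0.712% in the other Ctrl libraries and 0.682% to 0.729% in the LKO libraries. FPKM is scaled per length, so these levels can be compared between genes.

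**Figure D1:**
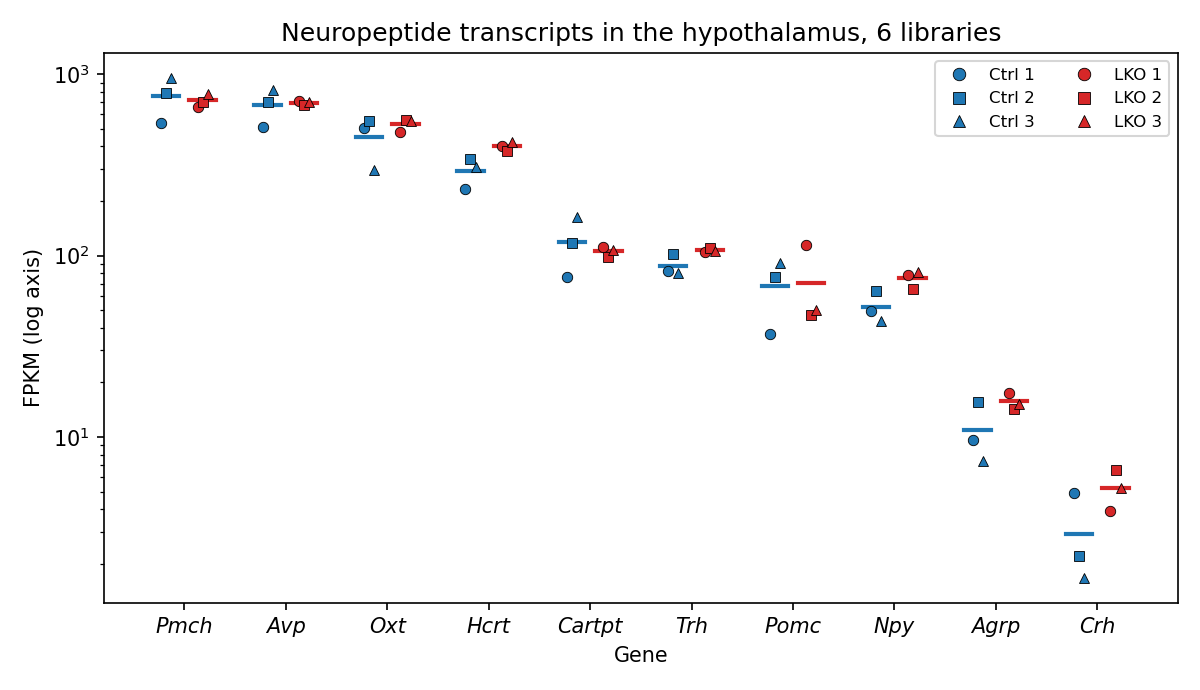
Levels of the 10 neuropeptide transcripts in the 6 hypothalamus libraries (FPKM on a log axis), with 1 point per library, shaped by replicate number, and a bar at each group mean. The LKO points sit closer together than the Ctrl points for every gene but *Pomc*, and lie wholly above the Ctrl points for *Hcrt*, *Trh* and *Npy*.

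The comparison of LKO with Ctrl asks whether a defect confined by design to hepatocytes is accompanied by a different output of the hypothalamic feeding peptides. *Npy*, *Hcrt* and *Trh* were higher in every LKO library than in any Ctrl library, by less than 1.5-fold, and no peptide was lower in that way. Groups did not overlap for 9.7% of the 13828 genes tested, with 4.74% higher and 4.97% lower in LKO. *Crh* alone passed the unadjusted criterion, a fold change of at least 1.5 with an unadjusted limma p under 0.05, which 0.333% of all tested genes passed in either direction (0.166% higher and 0.166% lower). It was also the one peptide with a fold change of at least 1.5, a size that 0.622% of all genes reached. None of the 10 passed with the Benjamini-Hochberg adjusted p in its place, which 0.0217% of all genes did, and the adjusted p was 0.999 for each of the 10. At an unadjusted p under 0.05 from limma, without a limit on the fold, 5 of the 10 peptides were called (*Agrp*, *Npy*, *Hcrt*, *Trh* and *Crh*, all higher), against 3.72% of all genes. That count was 2 without Ctrl 3 or LKO 2 (*Npy* and *Hcrt* in both), against 4.10% and 2.12% of all genes. It was 3 without LKO 3, with no filter on low values or with a block for the replicate number, against 2.14%, 4.18% and 3.49%, and 1 with ordinary variances (*Npy*), against 4.35%. Without Ctrl 1 it was 4, against 8.00% of all genes, and took in *Cartpt* as lower (log2 fold change -0.38) beside 3 higher. In sign, 8 of the 10 were higher and 2 lower in LKO, against 47.4% of all genes higher. The median log2 fold change of the 10 was 0.28, and that of all genes tested was -0.01.

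**Figure D2:**
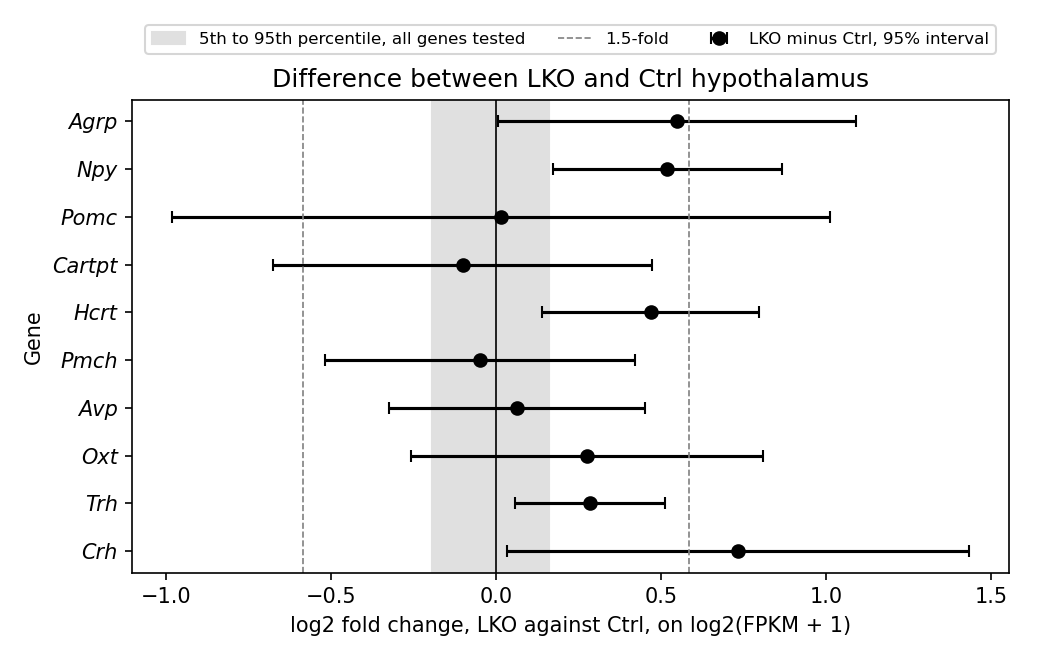
Log2 fold change of each neuropeptide (LKO against Ctrl, on log2(FPKM + 1)) with its 95% interval from limma, beside the 5th to 95th percentile of all 13828 genes tested (grey) and the lines of a 1.5-fold difference. The intervals of *Agrp*, *Npy*, *Hcrt*, *Trh* and *Crh* lie above 0, and that of *Pomc* reaches from -0.98 to 1.01.

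*Npy* (Gene 109648, chr6:49822710-49829505, plus strand), the peptide that most strongly stimulates feeding, was 49.6, 64.2 and 43.4 FPKM in Ctrl 1 to 3 and 77.8, 65.7 and 81.0 FPKM in LKO 1 to 3. The highest Ctrl and the lowest LKO library differed by little, and the other 4 were well apart. The log2 fold change was 0.52 (95% interval from limma 0.17 to 0.87), and the exact permutation p was 0.1, the smallest that 3 against 3 libraries can give. It was 0.67 without Ctrl 2 and 0.61 without LKO 2, which took it past the unadjusted criterion with an adjusted p of 0.721 and 1.000 from limma. *Agrp* (Gene 11604, chr8:105566695-105579845, minus strand), the antagonist of melanocortin receptors made in the same cells, was 9.6, 15.6 and 7.4 FPKM in Ctrl and 17.5, 14.3 and 15.2 FPKM in LKO. Ctrl 2 lay inside the LKO range and the other Ctrl libraries below it. Its log2 fold change was 0.55 (0.00 to 1.09, exact permutation p = 0.3). It was 0.82 without Ctrl 2 (limma adjusted p = 0.609), past the unadjusted criterion, as it was with a pseudocount of 0.1 (0.59) and with TPM (0.60). The FPKM ratio of *Npy* to *Agrp* varied little, from 4.11 to 5.89 over the 6 libraries, with the groups overlapping.

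*Pomc* (Gene 18976, chr12:3954945-3960643, plus strand), the precursor of the satiety peptide alpha-MSH and, in the pituitary, of ACTH, was 37.1, 76.6 and 90.9 FPKM in Ctrl and 114, 46.9 and 49.8 FPKM in LKO. Both groups spanned more than 2.4-fold, the lowest library being Ctrl 1 and the highest LKO 1. The log2 fold change was 0.01 with an interval of -0.98 to 1.01 (exact permutation p = 1.0), an interval that takes in differences of well over 1.5-fold in either direction. It turned to -0.37 without Ctrl 1 and to -0.39 without LKO 1. *Cartpt* (Gene 27220, chr13:99898483-99900683, minus strand), whose product restrains feeding, was 76.5, 117 and 164 FPKM in Ctrl and 112, 98.8 and 107 FPKM in LKO. All LKO libraries lay within the Ctrl range, and the log2 fold change of -0.10 (-0.68 to 0.47, exact permutation p = 0.7) turned to 0.16 without Ctrl 3. The FPKM ratio of *Agrp* to *Pomc* was 0.259, 0.204 and 0.0811 in Ctrl and 0.153, 0.306 and 0.306 in LKO, with overlap. The ratio of *Agrp* to *Cartpt* was 0.126, 0.134 and 0.0450 in Ctrl and 0.156, 0.145 and 0.142 in LKO, without overlap.

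*Pomc* is also made in the anterior pituitary, of which 10 marker transcripts were examined. Of these 5 were tested, *Lhb* through its LKO libraries alone (0.362 to 0.890 FPKM in Ctrl and 1.17 to 2.18 FPKM in LKO). Its direction and its lack of overlap thus followed from the filter. *Gh*, *Prl* and *Tshb* passed the unadjusted criterion as higher, against 0.166% of all genes, and so did *Lhb*. The limma adjusted p was 0.999 for each. *Gh*, growth hormone, was 34.6, 42.8 and 6.05 FPKM in Ctrl and 512, 151 and 110 FPKM in LKO (log2 fold change 3.21, 95% interval 1.32 to 5.10). *Prl* (prolactin, 0.368 to 8.64 FPKM in Ctrl and 10.2 to 56.1 FPKM in LKO), *Tshb* (thyrotropin, log2 fold change 0.75) and *Lhb* (luteinizing hormone, 0.64) were the others that passed, and *Cga*, the subunit that thyrotropin and the gonadotropins share, did not (1.45). *Prl* lost the call without LKO 1 (1.75), *Tshb* without LKO 1 (0.54) or Ctrl 3 (0.53) and *Lhb* without Ctrl 3 (0.49). *Prl* and *Tshb* also lost it with ordinary variances, and *Lhb* did not reach the limit for testing when any 1 LKO library was left out. *Gh* kept it without any 1 library (2.38 to 3.70) and with ordinary variances. With the spread taken from all 24 libraries in 1 limma fit, the adjusted p was 0.0315 for *Gh*, 0.0435 for *Prl*, 0.0208 for *Tshb* and 0.0157 for *Lhb*. That spread is pooled over 4 tissues, and outside the hypothalamus *Gh* was at most 5.27 FPKM and *Prl* at most 0.644 FPKM. In the hypothalamus alone the SD between replicates on the log2 scale was 1.31 for *Gh* and 1.36 for *Prl*. The pooled p-values do not measure that spread. *Gh*, *Prl*, *Tshb* and *Cga* were without overlap and higher in LKO, against 4.74% of all genes, and *Lhb* was so by the filter. The summed FPKM of the list was 8.44 to 54.8 in Ctrl and 132 to 593 in LKO. *Pou1f1*, the factor that defines the cells of *Gh*, *Prl* and *Tshb*, was at 0 in 4 libraries and 0.607 FPKM in LKO 1, and *Tbx19*, that of the pituitary *Pomc* cells, was 0.505 to 0.993 FPKM in Ctrl and 0.813 to 1.13 FPKM in LKO, both named after their values were seen. Across the libraries, *Pomc* and *Gh* were both highest in LKO 1, but *Pomc* stood at 90.9 FPKM in Ctrl 3, where *Gh* was lowest. The part of pituitary tissue in the level of *Pomc* was not tested.

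**Figure D3:**
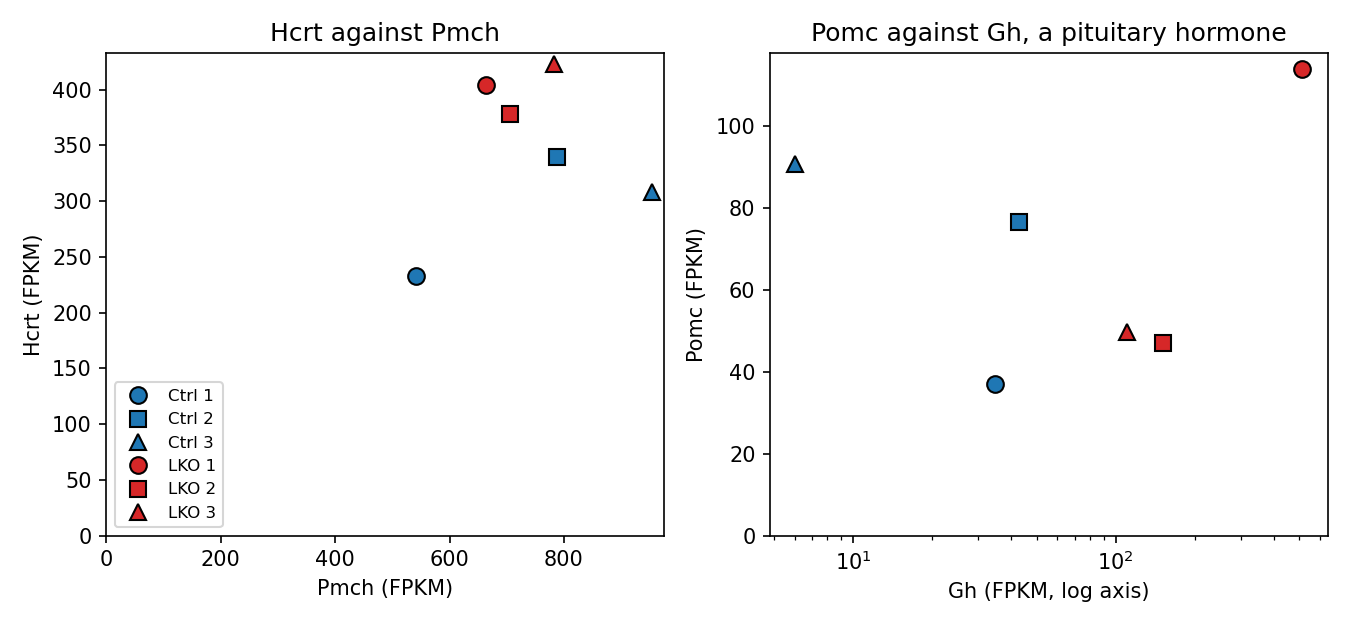
Left, *Hcrt* against *Pmch* in the 6 hypothalamus libraries (FPKM on both axes). Right, *Pomc* (FPKM) against *Gh*, a pituitary hormone (FPKM on a log axis). Each point is 1 library. On the left the LKO points have more *Hcrt* for their *Pmch*, with *Hcrt* to *Pmch* ratios of 0.535 to 0.609 against 0.323 to 0.431, and LKO 1 is highest for both genes on the right.

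*Hcrt* (Gene 15171, chr11:100761693-100762931, minus strand) was 233, 339 and 308 FPKM in Ctrl and 404, 378 and 423 FPKM in LKO. The LKO libraries lay close together, and every one was above the highest Ctrl library. The log2 fold change was 0.47 (0.14 to 0.80, exact permutation p = 0.1). When the spread was estimated from all 24 libraries in 1 limma fit, the adjusted p was 0.0435 at the same fold change, which is under 1.5-fold and thus not a call. Without any 1 library the log2 fold change was 0.31 to 0.58, the lowest without Ctrl 1. *Pmch* (Gene 110312, chr10:88091072-88092374, plus strand), the other large peptide of the lateral hypothalamus, was 541, 788 and 954 FPKM in Ctrl and 663, 707 and 783 FPKM in LKO. The LKO libraries lay within the Ctrl range, with a log2 fold change of -0.05 (-0.52 to 0.42, exact permutation p = 0.9) that turned to 0.13 without Ctrl 3 and to 0.01 without LKO 1. The span of *Pmch* overlaps that of *Parpbp* on the other strand, the kit did not mark strand, and the FPKM of *Parpbp* kept a ratio of 1 to 47.9 up to 1 to 54.5 with *Pmch*, so that the split of reads between them is uncertain.

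Within a library *Hcrt* and *Pmch* come from neighbouring cells of 1 region, and their ratio separated the groups. *Hcrt* per *Pmch* was 0.430, 0.431 and 0.323 in Ctrl 1 to 3 and 0.609, 0.535 and 0.541 in LKO 1 to 3. Ctrl 1, with the lowest level of both genes, had nearly the same ratio as Ctrl 2. The ratio was formed after the levels had been seen, so no test is given for it, nor for the other ratios.

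*Avp* (Gene 11998, chr2:130580620-130582588, minus strand), the antidiuretic hormone, was 514, 705 and 820 FPKM in Ctrl and 712, 675 and 704 FPKM in LKO. *Oxt* (Gene 18429, chr2:130576169-130577053, plus strand), the hormone of lactation and parturition that also reduces feeding, was 508, 555 and 297 FPKM in Ctrl and 477, 560 and 555 FPKM in LKO. In Ctrl 3, *Avp* was the highest and *Oxt* the lowest of the 6, and the ratio of *Avp* to *Oxt* was 2.76 there against 1.01 to 1.49 in the other 5 libraries. The log2 fold change was 0.06 (-0.32 to 0.45, exact permutation p = 0.9) for *Avp* and 0.28 (-0.26 to 0.81, exact permutation p = 0.5) for *Oxt*. *Avp* turned to -0.13 without Ctrl 1, and *Oxt* to -0.0034 without Ctrl 3. Their sum was 1021, 1260 and 1117 FPKM in Ctrl and 1190, 1235 and 1259 FPKM in LKO, and the groups overlapped. If each read of the shared run printed above was counted once, its split matters to the sum only through the transcript lengths (577 and 537 bases). How such reads were counted is not known.

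*Trh* (Gene 22044, chr6:92242061-92244650, minus strand), which starts the thyroid axis, was 82.4, 102 and 80.2 FPKM in Ctrl and 105, 111 and 105 FPKM in LKO. The LKO libraries were nearly equal, and Ctrl 2 came within reach of them. Its log2 fold change of 0.28 (0.06 to 0.51, exact permutation p = 0.1) was 0.22 to 0.39 without any 1 library. *Crh* (Gene 12918, chr3:19693401-19695396, minus strand), which starts the adrenal stress axis, was 4.9, 2.2 and 1.7 FPKM in Ctrl and 3.9, 6.6 and 5.3 FPKM in LKO. Ctrl 1 lay inside the LKO range and the other Ctrl libraries below it. The log2 fold change was 0.73 (0.03 to 1.43, exact permutation p = 0.2), at coverage of 9.25 to 40.5, the thinnest of the 10. That call was lost without Ctrl 2 (0.63), Ctrl 3 (0.50), LKO 2 (0.58) or LKO 3 (0.72) and kept without Ctrl 1 (1.07) or LKO 1 (0.89). It was also lost with no filter on low values, with ordinary in place of moderated variances and with a block for the replicate number, at the same fold change.

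The spread between replicates was wide for nearly all of these genes. The residual SD on the log2 scale was above the SD that limma fitted for genes of the same level in 10 of the 10 peptides, against 52.3% of all tested genes. It was above it in 8 of 10 without Ctrl 1, against 48.9%, and in 9 of 10 without Ctrl 2, against 50.7%. *Pomc* had an SD of 0.69, which was 7.75 times the fitted one and higher than that of 99.5% of all genes. *Crh* (0.48), *Cartpt* (0.39), *Agrp* (0.37), *Oxt* (0.36) and *Pmch* (0.31) ranked above 95.6% or more of all genes, *Avp* (0.24), *Npy* (0.23) and *Hcrt* (0.21) above 87.6% or more, and *Trh* (0.14) above 66.2%. The median SD of all genes was 0.11.

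**Figure D4:**
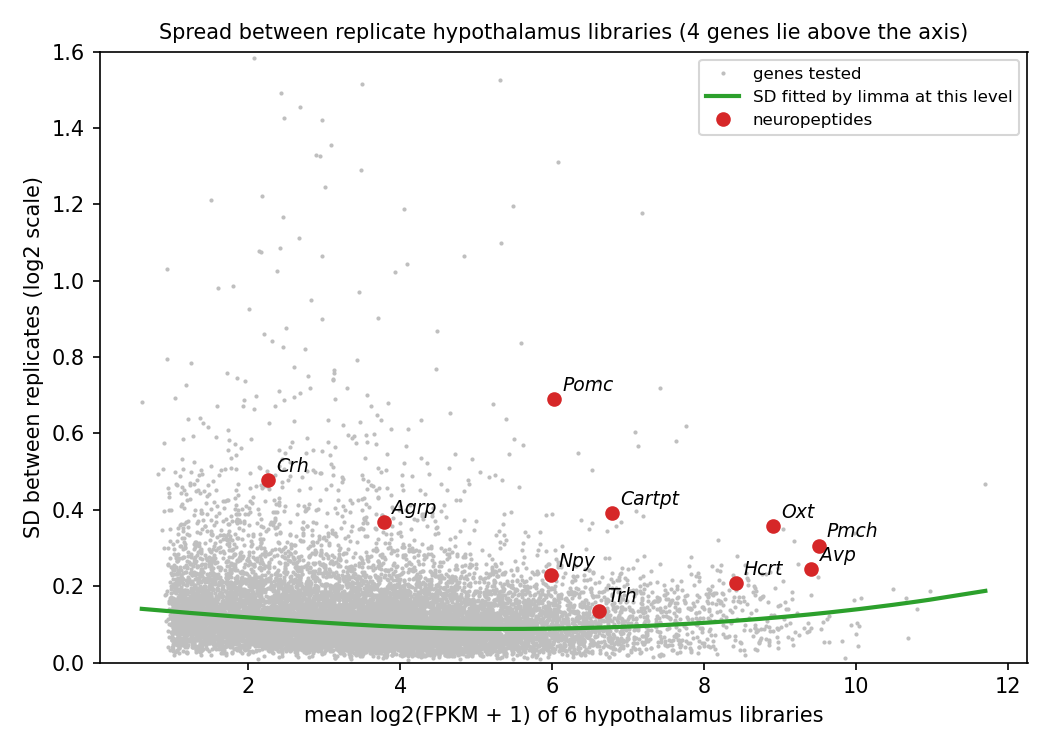
SD between replicates (log2 scale, within genotypes) against the mean log2(FPKM + 1) for the 13828 genes tested in hypothalamus (grey), the SD that limma fitted at each level (green line) and the 10 neuropeptides (red). All 10 lie above the line, *Pomc* farthest at 0.69, and 4 genes lie above the axis.

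Without Ctrl 1 the SD of *Avp* fell to 0.09 and that of *Hcrt* to 0.09, above 59.1% and 54.1% of all genes. *Pmch* (0.15) and *Cartpt* (0.21) then ranked above 83.4% and 92.9%. Without Ctrl 2 the SD of *Trh* was 0.04, above only 5.5% of all genes. *Npy* (0.15), *Hcrt* (0.18) and *Agrp* (0.18) then ranked above 67.6%, 76.9% and 77.4%. Without Ctrl 3 the SD of *Oxt* was 0.12, above 70.2%. *Pomc* ranked above 98.95% or more of all genes without any 1 library.

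The SD was larger in Ctrl than in LKO for 9 of the 10 peptides, all but *Pomc*, against 71.7% of all genes. It was larger in 8 without Ctrl 2, against 72.4% of all genes, with *Npy* and *Trh* then larger in LKO, in 8 without Ctrl 1, against 55.5%, in 9 without Ctrl 3, against 56.3%, and in 10 without LKO 1, against 79.6%. For *Avp* it was 0.34 in Ctrl and 0.04 in LKO, 8.54 times larger, and for *Cartpt* 0.55 and 0.09, 6.06 times larger. Without Ctrl 1 these ratios were 3.83 and 3.81, and without LKO 2 they were 28.8 and 12.5, each then with 2 libraries in 1 group. The lowest of the 6 libraries was Ctrl 1 for 5 peptides (*Pomc*, *Cartpt*, *Hcrt*, *Pmch* and *Avp*) and Ctrl 3 for the other 5 (*Agrp*, *Npy*, *Oxt*, *Trh* and *Crh*). Ctrl 3 was also the highest for *Cartpt*, *Pmch* and *Avp*, and Ctrl 2 was at neither end for any. No LKO library was the lowest for any peptide.

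**Figure D5:**
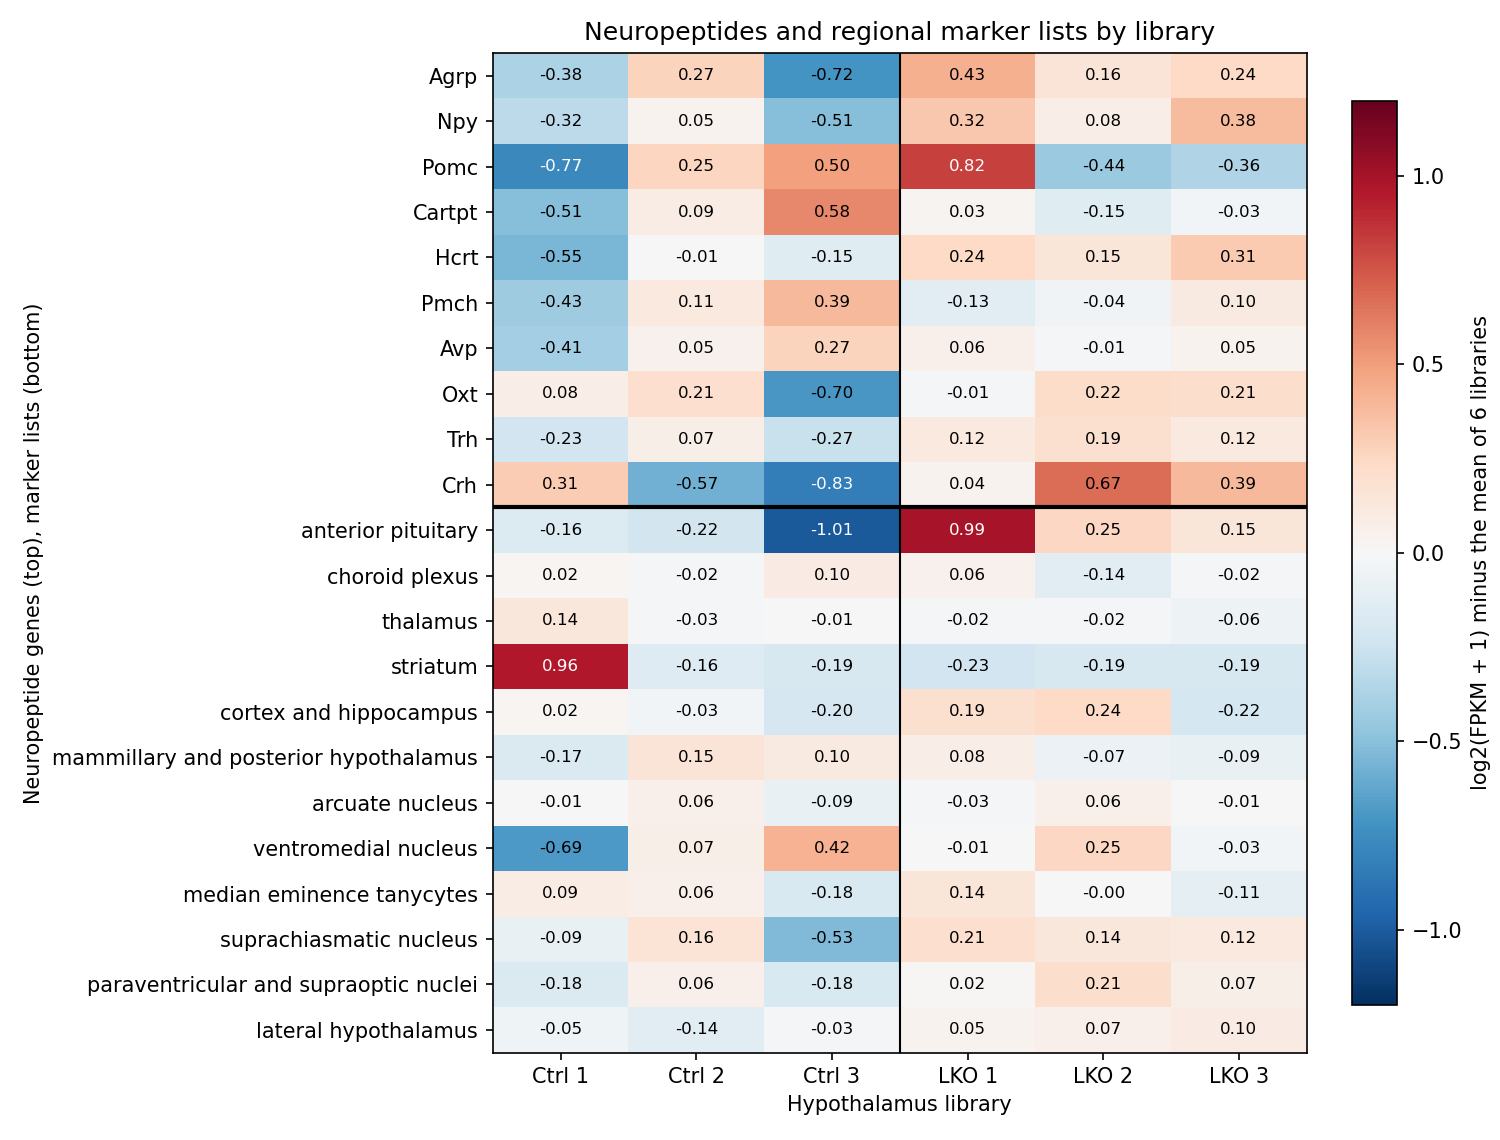
Difference of each hypothalamus library from the mean of the 6, on log2(FPKM + 1), for the 10 neuropeptides (above the black line) and for 12 lists of regional marker genes (below it, mean over the genes of a list). Ctrl 1 is 0.96 above the mean in the striatum list and 0.69 below it in the ventromedial list, its arcuate mean joins a high *Slc6a3* with low *Ghrh* and *Bsx*, Ctrl 3 is 0.42 above the mean in the ventromedial list and 0.53 below it in the suprachiasmatic list, and the anterior pituitary list is above the mean in the 3 LKO libraries alone.

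Regional markers set the same libraries apart. In Ctrl 1 the 8 striatal markers summed to 139 FPKM, against 61.4 to 65.3 FPKM in the other 5 libraries, with *Adora2a* (a receptor of striatal output neurons) at 7.04 FPKM against 0.580 to 1.17 and *Ppp1r1b* (DARPP-32) at 48.6 against 14.0 to 18.3. The 4 markers of the ventromedial nucleus summed to 17.6 FPKM in Ctrl 1, 41.5 in Ctrl 3 and 29.7 to 45.1 in the rest. The highest sum, in LKO 2, came with *Adcyap1* (PACAP) at 26.8 FPKM there against 7.07 to 12.1 FPKM in the other libraries, and without *Adcyap1*, a step chosen after the values were seen, the other 3 summed to 10.5 FPKM in Ctrl 1, 29.4 in Ctrl 3 and 18.3 to 21.7 in the rest. *Nr5a1* (SF-1), which defines that nucleus, was 3.17, 7.63 and 11.1 FPKM in Ctrl and 6.74 to 7.26 FPKM in LKO. Ctrl 1 thus had the least and Ctrl 3 the most *Nr5a1*, the order in which *Pomc*, *Cartpt*, *Pmch* and *Avp* stood among the Ctrl libraries. The 8 arcuate markers, none of them among the 10 peptides, went in different directions in Ctrl 1. *Slc6a3*, the dopamine transporter, whose expression is not confined to the arcuate nucleus, was 37.8 FPKM in Ctrl 1 and 1.45 to 7.68 FPKM in the others. *Ghrh* (growth hormone-releasing hormone) was lowest in Ctrl 1, at 8.29 FPKM against 15.6 to 18.9 FPKM. *Bsx*, a factor of the *Agrp* neurons named after its values were seen, was likewise lowest there, at 3.70 against 7.30 to 10.8 FPKM. Of the remaining markers, also named after their values were seen, *Tbx3* and *Six6* were lowest in Ctrl 1. *Kiss1*, *Tac2* and *Prlr* lay there within the range of the other libraries. The mean log2(FPKM + 1) of the list was 2.91 in Ctrl 1 and 2.82 to 2.98 in the rest, and without *Slc6a3*, again chosen after the values were seen, it was 2.57 in Ctrl 1 and 2.94 to 3.04 in the rest. Without Ctrl 1 the log2 fold change was 0.49 for *Npy*, 0.50 for *Agrp*, 0.31 for *Hcrt* and 0.24 for *Trh*, and without LKO 1 it was 0.49, 0.47, 0.46 and 0.30. The part of the dissection in these levels was not tested.

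Ctrl 3 was low in the suprachiasmatic list, whose 7 genes summed to 19.9 FPKM there and to 26.0 to 36.5 FPKM in the other libraries. *Vip*, a peptide of that nucleus, was 4.03, 7.77 and 1.79 FPKM in Ctrl and 8.58, 8.98 and 7.86 FPKM in LKO, and it passed the unadjusted criterion with a log2 fold change of 0.93 (95% interval 0.07 to 1.78). That call was kept without Ctrl 2 (1.34) and lost without any other 1 library, the log2 fold change being 0.51 without Ctrl 3 and 0.89 to 0.97 without the rest. It was also lost with no filter on low values and with ordinary variances. The 5 blood transcripts summed to 952 FPKM in Ctrl 3, against 228 to 460 FPKM elsewhere, with the globin genes *Hba-a1*, at 23.0 against 2.49 to 7.96 FPKM, and *Hbb-bs*, at 442 against 90.5 to 201 FPKM, whose reads their copies can share. The hepatocyte transcripts *Alb* and *Mup3*, singled out after their values were seen, were 10.98 and 6.19 FPKM in Ctrl 3 and at most 1.14 and 0.104 FPKM in the other 5 libraries. Without Ctrl 3 the log2 fold change was 0.39 for *Npy*, 0.33 for *Agrp*, 0.51 for *Hcrt* and 0.22 for *Trh*.

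Correlations between the peptides were computed across the 6 libraries. Of 45 pairs, 31 had a positive and 14 a negative Pearson correlation on log2(FPKM + 1) (n = 6), 8 had an exact permutation p under 0.05, and none did after Benjamini-Hochberg adjustment over the 45, where the smallest value was 0.219. *Agrp* and *Npy*, made by the same neurons, had r = 0.94 (exact permutation p = 0.0111) and rho = 0.71 (exact permutation p = 0.136). Without Ctrl 1 and Ctrl 3, the libraries farthest from the median, r was 0.47. With 4 libraries left these values are a description. *Cartpt* and *Avp* had r = 0.94 (exact permutation p = 0.0292) and rho = 0.94 (exact permutation p = 0.0167), and r was 0.86 without the same libraries. *Npy* and *Hcrt* had r = 0.82 (exact permutation p = 0.0347) and rho = 0.94 (exact permutation p = 0.0167), with 0.92 without them. On deviations from the group means, which leave out the difference between genotypes, r was 0.48 for *Npy* and *Hcrt* and 0.92 for *Agrp* and *Npy*, with adjusted permutation p of 0.547 and 0.0938. *Pmch* and *Avp* had r = 0.92 (exact permutation p = 0.0153) and rho = 0.66 (exact permutation p = 0.175), with r of 0.08 without Ctrl 1 and Ctrl 3. Thus r fell for *Agrp* with *Npy* and for *Pmch* with *Avp*, but leaving out the farthest libraries narrows the range and can lower r by itself. These pairs have the library, its depth and its dissection in common.

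Among the 13818 other tested genes, each peptide had one whose values followed it closely over the 6 libraries. The highest Pearson r was with *Pnldc1* for *Agrp* (0.989), *Atat1* for *Npy* (0.984), *Napepld* for *Pomc* (0.999), *Hemk1* for *Cartpt* (1.000) and *Pigs* for *Hcrt* (0.993). For *Pmch* it was *Amy1* (0.997), for *Avp* *Cenpv* (1.000), for *Oxt* *Ppp6r2* (0.991), for *Trh* *Dbpht2* (0.996) and for *Crh* *Unc13a* (0.994). With 6 points and so many genes such values are a description only. The number of genes at r of at least 0.9 was 1007 for *Cartpt*, 877 for *Avp* and 830 for *Pmch*, and 103 to 252 for the other 7 peptides, so that many genes had the pattern of low in Ctrl 1 and high in Ctrl 3.

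The promoters of *Cartpt*, *Avp* and *Pmch*, each lowest in Ctrl 1 and highest in Ctrl 3, and of *Hcrt*, whose groups did not overlap, are printed from RefSeq on GRCm38.p6 to show what they have in common in letters. Each window runs from 250 bases before the start of transcription to 50 after it, and 8 of the 10 peptides had one, all but *Agrp* and *Crh*. Capitals mark the motifs searched on both strands, which were the cAMP response element TGACGTCA, the E-box CACGTG, the TATA letters TATAAA and the NBRE AAAGGTCA. The windows are chr13:99900634-99900933 on the minus strand for *Cartpt*, chr2:130582539-130582838 on the minus strand for *Avp*, chr10:88090822-88091121 on the plus strand for *Pmch* and chr11:100762882-100763181 on the minus strand for *Hcrt*.
Cartpt: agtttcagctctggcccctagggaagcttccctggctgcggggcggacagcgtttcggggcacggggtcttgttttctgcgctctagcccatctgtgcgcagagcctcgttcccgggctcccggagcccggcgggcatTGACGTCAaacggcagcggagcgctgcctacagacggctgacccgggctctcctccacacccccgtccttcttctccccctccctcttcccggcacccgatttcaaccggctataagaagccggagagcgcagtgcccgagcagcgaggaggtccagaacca
Avp: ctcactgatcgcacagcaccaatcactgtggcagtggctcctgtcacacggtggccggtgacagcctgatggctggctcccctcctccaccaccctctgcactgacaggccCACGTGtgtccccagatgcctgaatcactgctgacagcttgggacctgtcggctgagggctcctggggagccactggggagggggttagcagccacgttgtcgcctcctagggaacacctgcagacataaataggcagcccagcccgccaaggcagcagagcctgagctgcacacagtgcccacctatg
Pmch: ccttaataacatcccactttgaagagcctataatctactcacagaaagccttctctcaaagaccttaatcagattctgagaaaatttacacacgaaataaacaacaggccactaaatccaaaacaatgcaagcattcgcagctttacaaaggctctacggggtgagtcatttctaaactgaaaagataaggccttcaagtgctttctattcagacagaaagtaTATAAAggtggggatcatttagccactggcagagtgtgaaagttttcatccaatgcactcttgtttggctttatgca
Hcrt: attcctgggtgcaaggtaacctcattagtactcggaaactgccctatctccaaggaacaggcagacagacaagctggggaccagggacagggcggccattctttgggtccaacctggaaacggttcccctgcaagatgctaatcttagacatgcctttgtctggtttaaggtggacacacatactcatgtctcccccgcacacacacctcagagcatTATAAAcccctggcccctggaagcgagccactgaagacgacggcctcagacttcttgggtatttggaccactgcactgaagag
The cAMP response element stood at -112 in *Cartpt* and is held by 1.79% of 32851 promoter windows. The E-box stood at -139 in *Avp* (7.15% of windows), and TATAAA at -33 in *Hcrt*, -27 in *Pmch* and -25 in *Pomc* (13.6%). No window of the 8 held the NBRE, which 1.51% of all windows hold, and no 1 of these motifs was in all 3 of *Cartpt*, *Avp* and *Pmch*. A match is a match of letters and not a site in use.

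The receptors of these peptides were measured from the same libraries. Of 21 receptors of peptides and metabolic hormones, 19 were tested, and none passed the unadjusted criterion in either direction, 4 of the 19 having an unadjusted p under 0.05 from limma, against 3.72% of all genes (median log2 fold change 0.07). Groups did not overlap for 4 that were higher and 2 that were lower in LKO, against 4.74% and 4.97% of all genes. *Calcr*, the calcitonin receptor through which amylin reduces feeding, was 9.16, 10.04 and 8.59 FPKM in Ctrl and 11.2, 11.9 and 12.02 FPKM in LKO (log2 fold change 0.31, 95% interval 0.14 to 0.48, limma adjusted p = 0.999), and the log2 fold change was 0.26 to 0.36 without any 1 library. With all 24 libraries in 1 limma fit, whose spread is pooled over 4 tissues, its adjusted p was 0.0485, at a fold change under 1.5. The orexin receptor *Hcrtr1* (0.21), the NPY receptor *Npy2r* (0.25) and the ghrelin receptor *Ghsr* (0.30) were likewise without overlap and higher in LKO, and the MCH receptor *Mchr1* (-0.15) and the CRH receptor *Crhr1* (-0.13) without overlap and lower, these 5 being named after their values were seen. *Insr*, the insulin receptor, had a log2 fold change of -0.64 that came from LKO 1, at 0.677 FPKM against 5.85 to 6.69 FPKM in the other 5 libraries. *Fgfr1* was the most abundant at 30.4 to 34.4 FPKM, while *Klb*, its partner for FGF21, was 0.185 to 0.328 FPKM. *Gfral*, the GDF15 receptor of the hindbrain, was listed at 0 in 5 libraries and at 0.0378 FPKM in LKO 3.

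The machinery that cuts and packs the peptides was measured by 12 genes, all of them tested. None was called in either direction, against 0.333% of all genes, and 0 had an unadjusted p under 0.05 from limma, against 3.72%, with a median log2 fold change of 0.05. *Cpe* (carboxypeptidase E), the most abundant, had a log2 fold change of -0.03, and *Scg2* (secretogranin II) was 382, 430 and 447 FPKM in Ctrl and 457, 466 and 476 FPKM in LKO (0.15), without overlap. *Pcsk1n*, an inhibitor of prohormone convertase, was 377, 518 and 737 FPKM in Ctrl, so that Ctrl 1 was lowest and Ctrl 3 highest as for *Cartpt*, *Pmch* and *Avp*, and 502 to 578 FPKM in LKO. *Chga* (0.13) and *Chgb* (0.15), the chromogranins of the granule, had overlapping groups.

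Among 24 other hypothalamic peptides, 22 were tested and *Vip* alone passed the unadjusted criterion (1 higher, 0 lower), with 4 of the 22 at an unadjusted p under 0.05 from limma, against 3.72% of all genes, and a median log2 fold change of 0.15. *Nts*, neurotensin, was 28.6, 15.8 and 19.7 FPKM in Ctrl and 27.8, 31.8 and 33.5 FPKM in LKO (0.55, 95% interval 0.10 to 1.01), with Ctrl 1 inside the LKO range as for *Crh*. Its log2 fold change was 0.78 without Ctrl 1, 0.37 without Ctrl 2 and 0.50 to 0.63 without any other 1 library. *Sst* (somatostatin, 0.24), *Penk* (-0.21), *Tac1* (-0.16) and *Gal* (0.09) were the other abundant ones, with overlap. Of 13 transcription factors of peptide neurons, 12 were tested and none was called, with 2 of the 12 at an unadjusted p under 0.05 from limma, against 3.72% of all genes (median log2 fold change 0.09). These 2 were also the ones without overlap and higher in LKO, as were 4.74% of all genes. *Otp*, which is needed for the *Avp*, *Oxt*, *Trh* and *Crh* neurons to form, was 12.9, 16.1 and 12.9 FPKM in Ctrl and 17.2, 21.3 and 19.4 FPKM in LKO (0.44, 95% interval 0.18 to 0.70), with 0.37 to 0.54 without any 1 library. With all 24 libraries in 1 limma fit, whose spread is pooled over 4 tissues, its adjusted p was 0.00549, at a fold change under 1.5. *Foxo1*, which insulin and leptin signalling hold in check, was 5.84, 5.48 and 4.93 FPKM in Ctrl and 6.61, 6.99 and 6.32 FPKM in LKO (0.25, 95% interval 0.07 to 0.44), with 0.20 to 0.30 without any 1 library. *Nkx2-1* was 9.68 FPKM in Ctrl 1 and 14.7 to 20.5 FPKM in the other libraries.

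The genes of largest change in the remaining marker lists all had a limma adjusted p of 0.999. Choroid plexus had *Kcnj13* (log2 fold change -0.44, without overlap) and *Clic6* (-0.19), thalamus *Tnnt1* (-0.30, without overlap) and *Rgs16* (0.25), cortex and hippocampus *Slc17a7* (0.76) and *Fezf2* (-0.06), and the mammillary list *Lmx1b* (-0.23) and *Foxa1* (-0.16). Among hypothalamic regions, *Ghrh* had 0.28 and *Slc6a3* -0.53 in the arcuate list, *Adcyap1* 0.51 and *Nr5a1* 0.09 in the ventromedial list, *Nms* 0.41 in the suprachiasmatic list, *Creb3l1* 0.18 in the paraventricular list, *Nptx2* 0.20 in the lateral list, and *Col25a1* 0.38 and *Crym* -0.26 among tanycyte markers. Among cell types, neurons had *Gad2* (0.16) and *Slc32a1* (0.15), microglia *Aif1* (-0.31) and *Cx3cr1* (-0.23), and oligodendrocytes *Mobp* (0.35, without overlap). Of the astrocyte genes *Aqp4* (-0.77) stood at 5.72 FPKM in LKO 3 against 21.7 to 36.6 FPKM in the other libraries, and *Gfap* had -0.11. None of them passed the unadjusted criterion.

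Outside the hypothalamus none of the 10 peptides reached the limit for testing, 1 FPKM in at least 3 of 6 libraries, in liver, iWAT or GM. Their summed level was at most 0.231 FPKM in a liver library and at most 1.73 FPKM in an iWAT library, and LKO could not be compared with Ctrl there. *Agrp* and *Pomc* were listed above 0 in every iWAT and GM library, at no more than 0.602 and 0.528 FPKM. In GM the sum was 0.416 to 1.70 FPKM in 5 libraries and 6.49 FPKM in Ctrl 1.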

How the data were processed

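Total RNA of 4 tissues was sequenced from unstranded TruSeq v2 libraries as paired reads of 100 bases. The authors deposited FPKM per gene in a joined table, and for each library FPKM, TPM (scaled by the authors to a fixed sum) and coverage, a signal not scaled for depth. The submitters' processing notes name FastQC 0.11.5, Trimmomatic 0.32, HISAT2 2.0.5, Bowtie2 2.2.6, STAR 2.5.2b, StringTie 1.3.3b and mm10, without their roles. The FPKM that 1 unit of coverage stood for, common to at least 72.5% of the genes of each hypothalamus library, gave the depth. Counts were not used here, so no counting interval is given.

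The 6 hypothalamus libraries, grouped by the sample titles, which name no batch, were fitted with limma 3.58.1 in R 4.3.3 (lmFit, eBayes with trend) on log2(FPKM + 1), for the 13828 genes that reached 1 FPKM in 3 or more libraries. Fold changes are LKO against Ctrl on that scale, which understates the change of low genes, and p-values are two-sided. The unadjusted criterion was a fold change of at least 1.5 with p under 0.05, and the adjusted criterion used the Benjamini-Hochberg p over all genes tested. Exact permutation tests cannot go below 0.1 with 3 against 3 libraries. The fit was tested on simulated data. Correlations used all 720 orders of the 6 libraries. Replicate libraries were not duplicates (Pearson r 0.9904 to 0.9974 across genes).

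The peptides and 21 lists of related genes and markers were chosen with earlier results of these data known. Named genes were all peptides, in each list the 2 genes of largest change, those past the unadjusted criterion and up to 4 abundant ones, and the best correlated gene per peptide, and others are marked as named after their values were seen. A gene that the rule names is not reported here. Lists of choroid plexus, thalamus, cortex and hippocampus, mammillary, tanycyte, astrocyte, oligodendrocyte and microglia markers had no gene past the unadjusted criterion. Sequences came from GENCODE M21 and RefSeq tables on GRCm38, joined by symbol and gene ID. The alternatives were a pseudocount of 0.1, 2 other filters, TPM, median-ratio scaling, ordinary variances, a replicate block, 1 fit of all 24 libraries, a fold of 2 and leaving out each library, and after the data were seen 2 marker lists were summarised without 1 gene each, and the count at p under 0.05, the SD of each group and 4 list genes were taken under these alternatives. Tables were read with pandas 2.3.3, numpy 2.4.6 and scipy 1.17.1 under Python 3.11.15, and plots drawn with matplotlib 3.10.9.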

Additional observations from a re-analysis of the deposited data

Results flagged for a closer look

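In 3 cases a neuropeptide reached 1 FPKM in a library outside the hypothalamus, in data that the comparisons did not use. *Oxt* was 2.76 FPKM and *Avp* 1.12 FPKM in GM Ctrl 1, at a mean coverage of 13.8 and 5.61. In that library 9 of the 10 peptides were above 0, all but *Hcrt*, and their sum was 6.49 FPKM, against 0.416 to 1.70 FPKM with 3 to 5 peptides above 0 in the other 5 GM libraries. The same library was the highest of the GM libraries in the neuronal *Snap25* (1.25 against 0 to 0.242 FPKM), the pituitary *Gh* (5.27 against 0 to 0.658 FPKM) and *Prl* (0.644 FPKM, listed at 0 in the others), and in the hepatocyte *Alb* (167 against 8.32 to 125 FPKM). *Npy* was 1.00 FPKM in iWAT Ctrl 2 and at most 0.219 FPKM in the other iWAT libraries.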

How the results depend on the processing

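The log2 fold changes of the 10 peptides kept their sign under every alternative that used all 6 libraries, and 5 of them changed sign when 1 library was left out. *Pomc* ranged from -0.39 (without LKO 1; -0.37 without Ctrl 1) to 0.27, *Avp* from -0.13 (without Ctrl 1) to 0.21, *Cartpt* from -0.38 to 0.16 (without Ctrl 3), *Pmch* from -0.28 to 0.13 (without Ctrl 3; 0.01 without LKO 1) and *Oxt* from -0.0034 (without Ctrl 3) to 0.45. The number of peptides past the unadjusted criterion, 1 as reported, was 2 with a pseudocount of 0.1 and with TPM, 0 with no filter, a mean of at least 5 FPKM (where *Crh* is not tested), ordinary variances, a replicate block or a fold change of at least 2, and 0 to 2 with 1 library left out. With the adjusted p it was 0 under every alternative. At an unadjusted p under 0.05 alone, 5 peptides became 3 with no filter, a mean of at least 5 FPKM or the replicate block, 1 with ordinary variances and 2 to 4 with 1 library left out, these counts being added after the data were seen. The SD was larger in Ctrl for 8 to 10 peptides with 1 library left out. Over all tested genes the unadjusted criterion called 46, and 86 with a pseudocount of 0.1, 27 with a mean of at least 5 FPKM, 21 with ordinary variances, 14 at 2-fold and 34 to 69 with 1 library left out. The adjusted criterion called 3, and 0 with no filter, ordinary variances or the replicate block, 1 with TPM, 9 with all 24 libraries in 1 fit and 0 to 9 with 1 library left out (9 without Ctrl 1, 8 without Ctrl 3, 0 without LKO 3). Of the genes of the lists 5 passed the unadjusted criterion, 3 with a mean of at least 5 FPKM, 2 with ordinary variances, 9 with all 24 libraries and 3 to 11 with 1 library left out (11 without Ctrl 2, 3 without Ctrl 3 or LKO 2). The cause of these moves was not tested. The labels do not say whether the replicate numbers pair the samples, and deviations within groups of 3 libraries cannot settle it. Those of same-numbered libraries correlated at -0.13, 0.14 and 0.09, and those of other pairs at -0.25 to 0.16. The block took the call of *Crh* and left 48 genes past the unadjusted criterion. It lowered the limma p of *Prl* from 0.0190 to 6.3e-05 and that of *Gh* from 0.0050 to 0.00066. Correlations between peptides gave 0 adjusted calls among 45 pairs under all 4 alternatives run for them, and leaving out each library in turn was not run for them, since it leaves under 6 samples. For 4 pairs r was given without Ctrl 1 and Ctrl 3 as a description. With 1 library left out, a group of 2 shares the spread of the other group. Low coverage limits *Crh*, and the lack of counts leaves its counting error unknown.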
